A study of Mus musculus with 8 samples.

Results

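Rora, Nr1d1 and Nr1d2 encode the nuclear receptors RORα, REV-ERBα and REV-ERBβ. They were taken as the rows of the deposited expression table whose gene name equals each symbol, which gave 3 genes of the 18262 listed. Their transcripts were measured by RNA sequencing of colon tissue from mice with colitis caused by dextran sulfate sodium (DSS), a polymer given to injure the colonic lining. The DSS + GAA group held 4 libraries from mice with DSS colitis given ganoderic acid A (GAA) as well, at 20 mg/kg. GAA is a triterpenoid that Ganoderma mushrooms make. The DSS group held 4 libraries from mice with DSS colitis and no GAA. All 8 libraries are labelled wild type (WT), and the replicates are numbered 1, 2, 4 and 5 in each group. How many mice stand behind a library is not stated in the labels. The treatment labels of the DSS + GAA libraries read 20, 21, 22 and 23 mg/kg, while the titles and the design text give 20 mg/kg, so these 4 libraries form a single group. Colon without DSS was not analysed here, so no healthy level stands beside these values. The sources used here do not give the age or strain of the mice, or the time of day at which tissue was taken. By its title, the series asks whether GAA eases colitis by acting on RORA and thereby on IL-17 signalling.

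RORs and REV-ERBs bind the same DNA element, an AGGTCA half-site behind an A/T-rich stretch, with opposite effects. RORs recruit coactivators and raise transcription, and REV-ERBs recruit a corepressor complex with HDAC3 and lower it. In the circadian clock this pair sets the rhythm of Arntl (BMAL1), whose product in turn drives Nr1d1 and Nr1d2 through E-box elements. RORα is also known for its part in the development of type 2 innate lymphoid cells (ILC2) and of Th17 cells. REV-ERBα is known to restrain inflammatory genes in macrophages and takes haem as a ligand.

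AGGTCA is printed where it occurs at the start sites of some of the genes in these results. Windows of 300 bases (250 before to 50 after each RefSeq start site, GRCm38.p6) were searched on both strands for AGGTCA and for the E-box CACGTG. These motifs can share bases and did so at 0 sites in the windows searched. Of 31 genes searched (the receptors, clock genes and Th17 genes), 26 had a window. AGGTCA lay in 9 of these genes, and in 9 of their 34 windows, against 16.3% of all 32851 windows. CACGTG lay in 5 genes, and in 6 of the 34 windows, against 7.15% of all windows. The windows of Rora and Nr1d1 held neither motif, and that of Nr1d2 held AGGTCA. The sites of Nr1d2, of the clock genes Arntl and Nfil3 and of the cytokine genes Il17a and Il17f are printed on the gene's own strand with 12 bases on each side. Clock, Per1, Il23r and Ccr6 held AGGTCA as well, and their sites are not printed. Capitals mark AGGTCA or its reverse complement TGACCT, and such a match is a description of the letters only.
Nr1d2 (chr14:18239166-18239195, minus strand): gattggaagaagAGGTCAggaccgctcgtt
Arntl (chr7:113207530-113207559, plus strand): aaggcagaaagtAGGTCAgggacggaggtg
Nfil3 (chr13:52981034-52981063, minus strand): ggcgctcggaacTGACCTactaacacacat
Il17a (chr1:20730773-20730802, plus strand): gtggttctgtgcTGACCTcatttgaggatg
Il17f (chr1:20784311-20784340, minus strand): cagtcagtaaggAGGTCAgtggaaacaggg

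Levels are TPM values as deposited, which scale transcripts for their length and for the library's total. TPM keeps no record of sequencing depth, so depth is unknown and no interval that needs counts is given. Groups were compared with limma on log2(TPM + 1) over the 14217 genes that reached 1 TPM in at least 4 libraries. Of these, 28.2% fell and 5.96% rose at an adjusted p under 0.05, and 27.6% lay lower and 5.31% higher in DSS + GAA with no overlap between the groups. Other scalings moved this split: 1890 genes rose and 1649 fell under trimmed mean scaling, 1677 and 1601 under quantile normalization and 2165 and 1308 under median centring, against 847 and 4006 as reported. Over the tested genes the log2 fold change had a median of -0.25, so each receptor's change is also given relative to that shift.

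Rora fell, and neither REV-ERB gene passed the test. Thus 1 of the 3 genes passed, against 34.1% of all tested genes, and the groups did not overlap for 1 of the 3, against 32.9%. Rora had 5.36, 3.44, 1.72 and 1.78 TPM in DSS + GAA replicates 1, 2, 4 and 5, against 11.9, 9.12, 7.20 and 7.87 TPM in the DSS libraries in the same order. The groups did not overlap, and within DSS + GAA replicates 4 and 5 lay lowest. Rora averaged 3.07 ± 1.72 TPM in DSS + GAA and 9.01 ± 2.06 TPM in DSS (SD, n = 4 each). Its log2 fold change was -1.37 ± 0.29 (SE, limma adjusted p = 0.0101), which is -1.12 relative to all genes. Permuting the libraries exactly (70 assignments, two-sided) gave p = 0.0286, the smallest this design allows. Rora lies on chromosome 9 from 68653786 to 69388246 on the plus strand (GRCm38, GENCODE vM21).

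Nr1d1 had 96.3, 81.3, 50.4 and 49.2 TPM in DSS + GAA replicates 1, 2, 4 and 5, against 42.0, 46.0, 50.7 and 57.7 TPM in DSS. Replicates 1 and 2 of DSS + GAA lay above every DSS library, while replicates 4 and 5 lay within the DSS range. The log2 fold change was 0.44 ± 0.23 (SE, limma adjusted p = 0.160, exact permutation p = 0.2), or 0.69 relative to all genes. Without DSS + GAA replicate 1 it was 0.26. The authors' deposited table gives Nr1d1 a log2 fold change of 0.50 at a false discovery rate of 0.0319, where 10.3% of all genes are called higher. In the authors' deposited table Rora has -1.55 at 3.67e-04 and Nr1d2 has -0.29 at 1.00, and the sources used here do not name the test behind these values.

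Nr1d2 had 50.1, 54.0, 64.3 and 67.7 TPM in DSS + GAA replicates 1, 2, 4 and 5, against 82.5, 48.5, 71.2 and 87.4 TPM in DSS. The groups overlapped because DSS replicate 2 lay below every DSS + GAA library. The log2 fold change was -0.27 ± 0.19 (SE, limma adjusted p = 0.308, exact permutation p = 0.286), or -0.01 relative to all genes. Its sign turned under trimmed mean scaling and median centring. Nr1d2 lies on chromosome 14 from 18204054 to 18239127 on the minus strand.

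**Figure D1:**
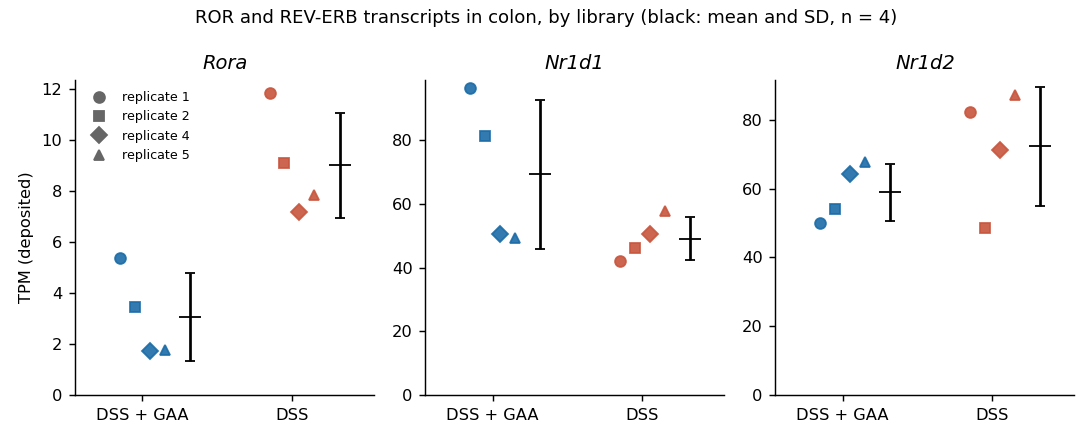
TPM of Rora, Nr1d1 and Nr1d2 in each library, with DSS + GAA in blue and DSS in red, marker shapes for replicate numbers, and the mean and SD of 4 libraries in black. The DSS + GAA libraries lie at 1.72 to 5.36 TPM for Rora, below all DSS libraries, while the groups overlap for both REV-ERB genes.

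In TPM, which is per length, the REV-ERB transcripts were far more abundant than Rora. In DSS + GAA the order of mean levels was Nr1d1 (69.3 ± 23.3 TPM), Nr1d2 (59.0 ± 8.31 TPM) and Rora (3.07 TPM). In DSS it was Nr1d2 (72.4 ± 17.3 TPM), Nr1d1 (49.1 ± 6.74 TPM) and Rora (9.01 TPM). Nr1d1 and Nr1d2 overlapped within each group, and Rora lay below both in every library. The mean of Rora lay above that of 17% of tested genes in DSS + GAA and 31.0% in DSS, and that of Nr1d1 above 84.1% and 76.3%.

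Ratios within a library do not depend on scaling between libraries. Rora over Nr1d1 was 0.0557, 0.0423, 0.0340 and 0.0361 in DSS + GAA replicates 1, 2, 4 and 5, against 0.282, 0.198, 0.142 and 0.136 in DSS. The ratio was thus lower in every DSS + GAA library than in any DSS library. Rora over Nr1d2 was 0.107, 0.0637, 0.0267 and 0.0262 in DSS + GAA, against 0.144, 0.188, 0.101 and 0.0901 in DSS, and the groups overlapped through DSS + GAA replicate 1. Nr1d1 over Nr1d2 was 1.92, 1.51, 0.784 and 0.727 in DSS + GAA, against 0.509, 0.949, 0.712 and 0.660 in DSS, which also overlapped. These ratios are descriptions and were not tested.

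The 3' end of Nr1d1 (chromosome 11, 98767932 to 98775333, minus strand) overlaps that of Thra, the thyroid hormone receptor α gene on the plus strand. The overlap covers 263 of the 3077 exonic bases of Nr1d1, or 8.55%, and the labels do not say whether the libraries kept strand. Reads in this stretch could therefore be counted to either gene. Thra had 30.8, 26.1, 19.6 and 20.1 TPM in DSS + GAA, against 27.8, 22.8, 25.5 and 30.2 TPM in DSS, and did not pass (log2 fold change -0.15, limma adjusted p = 0.515). Its sign turned under trimmed mean scaling, quantile normalization and median centring. Nr1d1 over Thra was 2.44 to 3.13 in DSS + GAA and 1.51 to 2.02 in DSS, without overlap. In Rora, 82 of 13071 exonic bases are shared with the antisense transcript Gm15511, which was not analysed here.

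Rorb, another ROR gene, stayed below 0.13 TPM in all 8 libraries and was not tested.

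Among nuclear receptors as a whole, Rora stood near the low end of the fold changes and the REV-ERB genes in the middle. Of 48 listed receptor genes, 36 were tested, and 8 rose and 7 fell (5.96% and 28.2% over all tested genes). The median log2 fold change of the receptors was -0.05, against -0.25 for all tested genes. The lowest fold changes among those that passed were those of Nr4a1 (-2.67), Nr4a2 (-1.97), Nr4a3 (-1.42), Rora (-1.37) and Rarb (-1.19). The NR4A genes are immediate early genes, and Rarb is a retinoic acid receptor induced by its own ligand. Among the highest were those of the vitamin D receptor Vdr (1.26), the epithelial regulator Hnf4a (0.99), the oxysterol receptor Nr1h3 (0.87) and the mineralocorticoid receptor Nr3c2 (0.72). Limma adjusted p-values of these genes lay between 0.00824 and 0.0477. Receptors that rose numbered 4 without DSS + GAA replicate 2 or DSS replicate 1 and 5 without DSS + GAA replicate 4 or 5, and 4 fell under quantile normalization. Nr1h3 lost its call without DSS + GAA replicate 2, 4 or 5 or DSS replicate 1, 2 or 5. The call of Nr1h3 was also lost with a pseudocount of 0.1, with no filter, under a filter of 5 TPM and with the replicate number as a block. Nr4a2 lost its call under quantile normalization and without DSS + GAA replicate 4 or DSS replicate 1, 2 or 4.

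**Figure D2:**
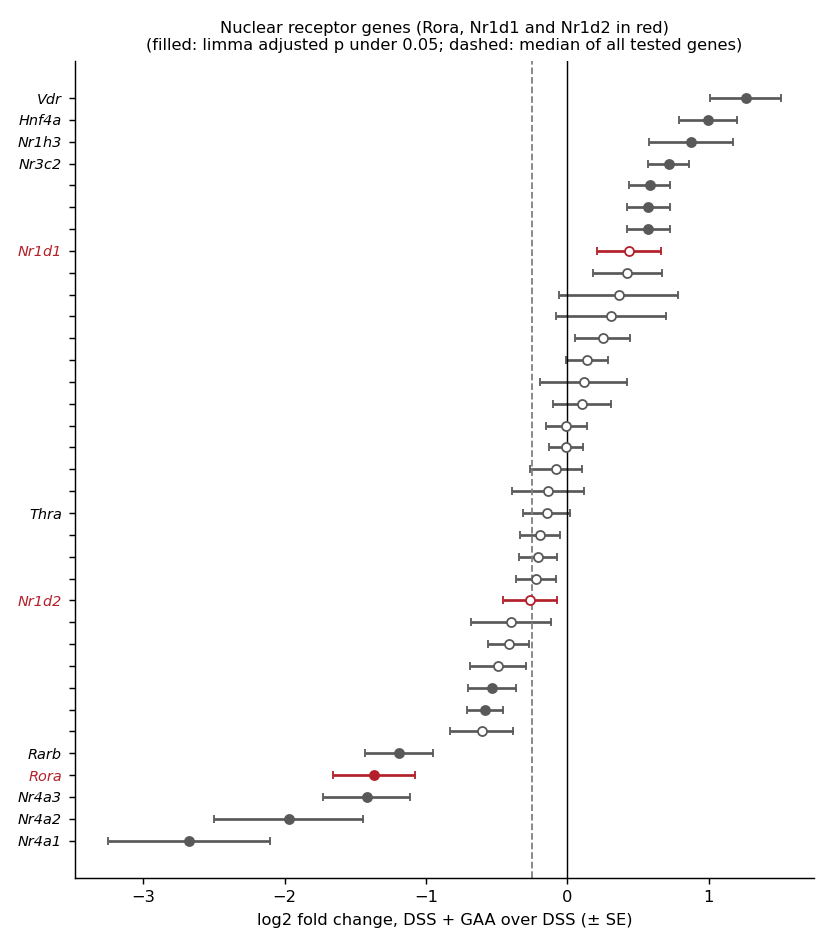
Log2 fold change of DSS + GAA over DSS with its standard error for tested nuclear receptor genes in order of size, with names on the axis only for receptors given in the text, not every tested receptor drawn, and Rora, Nr1d1 and Nr1d2 in red. Filled points passed at a limma adjusted p under 0.05, the dashed line marks the median of all tested genes (-0.25), and Rora is the 4th lowest at -1.37.

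Clock genes did not all move alike. The first clock list holds genes whose rhythm the ROR element is known to shape: the activators Arntl, Clock and Npas2, and Cry1 and Nfil3. Nfil3 and Cry1 fell (28.2% of all tested genes did), and the other 3 did not pass. Nfil3 encodes E4BP4, a repressor that binds D-boxes and a known REV-ERB target. It had 21.9, 12.9, 7.72 and 6.90 TPM in DSS + GAA, against 97.6, 87.9, 57.5 and 24.7 TPM in DSS, with no overlap (log2 fold change -2.31 ± 0.46, limma adjusted p = 0.00869). Cry1, a repressor of BMAL1 and CLOCK, had 17.4 to 19.9 TPM in DSS + GAA and 22.3 to 28.1 TPM in DSS (-0.38, limma adjusted p = 0.0308). The call of Cry1 was lost under each of 3 other scalings (-0.12 to -0.08) and when DSS + GAA replicate 2, 4 or 5 or DSS replicate 1, 2 or 5 was left out. It was also lost with the replicate number as a block (limma adjusted p = 0.0814).

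Arntl, a common readout of ROR and REV-ERB activity, did not pass. It had 39.8, 25.4, 15.9 and 14.9 TPM in DSS + GAA replicates 1, 2, 4 and 5, against 34.5, 37.9, 32.1 and 21.0 TPM in DSS. DSS + GAA replicate 1 held the highest value of all 8 libraries and replicates 4 and 5 the lowest, and the log2 fold change was -0.45 ± 0.31 (limma adjusted p = 0.281). Without DSS + GAA replicate 1 it was -0.72 (limma adjusted p = 0.0369), and 4 genes of the list fell. Clock (-0.23) and Npas2 (-0.40) did not pass either, the sign of Clock turned under the 3 other scalings, and Npas2 passed without DSS + GAA replicate 1 (limma adjusted p = 0.0400). The list had 1 faller without DSS + GAA replicate 2, 4 or 5 or DSS replicate 1, 2 or 5, and under each of the 3 other scalings.

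The second clock list holds 10 repressors and outputs that E-boxes or D-boxes drive. Per1, Cry2 and Bhlhe40 fell, a share near the 28.2% of all tested genes, and the other 7 did not pass. Per1 had 12.7 to 15.0 TPM in DSS + GAA and 25.1 to 52.1 TPM in DSS (-1.29 ± 0.20, limma adjusted p = 0.00531), and Cry2 had 5.58 to 6.91 TPM in DSS + GAA and 11.3 to 26.2 TPM in DSS (-1.37 ± 0.23, limma adjusted p = 0.00585). Bhlhe40, the E-box repressor DEC1, had 92.2 to 116 TPM in DSS + GAA and 134 to 294 TPM in DSS (-0.92, limma adjusted p = 0.0143), and its call was lost under trimmed mean scaling, under median centring and without DSS replicate 1. The other Period gene values were 10.4 to 27.9 TPM in DSS + GAA and 9.53 to 22.5 TPM in DSS for Per2 (0.42), and 3.94 to 12.6 TPM in DSS + GAA and 2.64 to 14.8 TPM in DSS for Per3 (0.42).

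Dbp, a D-box activator whose RNA is a strong marker of clock phase, had 22.8, 31.3, 32.3 and 46.5 TPM in DSS + GAA, against 15.4, 6.79, 18.6 and 39.1 TPM in DSS. Its log2 fold change of 0.90 ± 0.43 did not pass (limma adjusted p = 0.136), and it did without DSS replicate 5 (1.29, limma adjusted p = 0.0296). The related Tef (0.38) and Hlf (-1.09) did not pass, although Hlf was lower in every DSS + GAA library (2.84 to 3.43 TPM) than in any DSS library (3.55 to 18.0 TPM). Hlf passed with a pseudocount of 0.1, with array quality weights, with neither a variance trend nor a robust fit, and without DSS replicate 2. It also passed with the replicate number as a block (limma adjusted p = 0.0462). Ciart (-0.11) and Bhlhe41 (-0.30) changed sign under other scalings. Within the DSS group, replicate 5 held the highest and replicate 2 the lowest value for Nr1d2, Dbp, Tef, Per2, Per3, Hlf and Ciart alike. Other clock genes did not share this order: DSS replicate 2 held the highest value for Arntl, Npas2, Cry1, Per1, Cry2 and Bhlhe40. Nr1d1 was lowest in DSS replicate 1.

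**Figure D3:**
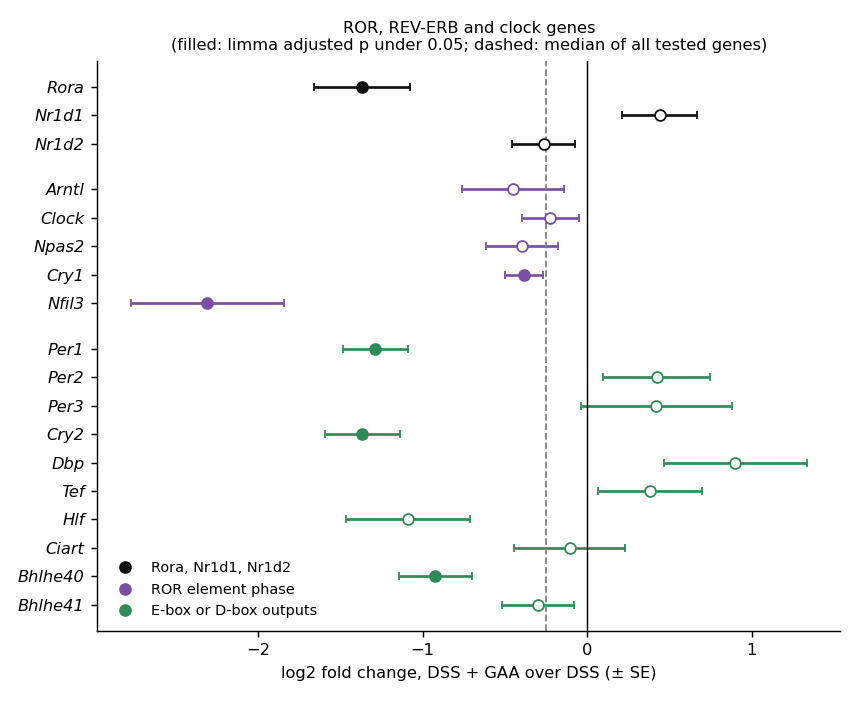
Log2 fold change of DSS + GAA over DSS with its standard error for Rora, Nr1d1 and Nr1d2 (black), clock genes of the ROR element phase (purple) and E-box or D-box outputs (green). Filled points passed at a limma adjusted p under 0.05: Rora, Cry1, Nfil3, Per1, Cry2 and Bhlhe40, all below 0, while the points above 0 are open.

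RORs act through coactivators. Of 9 coactivator genes, Ppargc1a rose (1.18, limma adjusted p = 0.0397) and Ncoa2 (-0.48) and Crebbp (-0.41) fell, so 3 of 9 passed, a share near the 34.1% of all tested genes. Ppargc1a encodes PGC-1α, a known coactivator of RORα, and had 6.58, 16.1, 24.3 and 25.2 TPM in DSS + GAA, against 8.34, 4.43, 6.57 and 7.56 TPM in DSS. The number of coactivators that rose was 2 when DSS + GAA replicate 1 was left out, 3 under each of the 3 other scalings, and 0 with no filter or when any single other library was left out. Coactivators that fell numbered 0 with the 3 other scalings and on leaving out DSS + GAA replicate 2 or DSS replicate 1, and 1 on leaving out DSS + GAA replicate 5.

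Of 9 genes for turnover of REV-ERB and clock proteins, 4 fell (28.2% over all tested genes). Among the 4 were the casein kinase gene Csnk1e (-1.16) and the ubiquitin ligase genes Mycbp2 (-0.72) and Fbxw7 (-0.50). MYCBP2 and FBXW7 are known to target REV-ERBα. The count was 1 for each of the 3 other scalings and 2 on leaving out DSS + GAA replicate 2, 4 or 5 or DSS replicate 1 or 4. Of 12 genes for making and breaking down haem, Hmox2 (-0.38) and Fech (-0.47) fell, a share below the 28.2% of all tested genes. The median log2 fold change of the 12 was -0.25, as over all tested genes. None of the 12 passed under the 3 other scalings, nor without DSS + GAA replicate 2 or DSS replicate 1, and 1 did with no filter, with neither a variance trend nor a robust fit, and without DSS + GAA replicate 1 or 4 or DSS replicate 2 or 4. With all libraries, 4 had an unadjusted p under 0.05.

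Sterols are known ROR ligands, and genes of sterol metabolism moved in both directions. Of 14 such genes, 5 rose and 3 fell (5.96% and 28.2% over all tested genes), with a median log2 fold change of 0.37. Cyp7b1, an oxysterol 7α-hydroxylase gene and a reported RORα target in liver, averaged 3.75 ± 1.72 TPM in DSS + GAA and 22.7 ± 8.75 TPM in DSS (-2.32 ± 0.32, limma adjusted p = 0.00510). Ch25h, which makes 25-hydroxycholesterol, fell too (-1.74). Sult2b1, which makes cholesterol sulfate, a reported RORα ligand, averaged 20.4 ± 4.39 TPM in DSS + GAA and 9.40 ± 1.52 TPM in DSS (1.03 ± 0.18, limma adjusted p = 0.00626), and the sterol desaturase gene Sc5d rose as well (0.72). Leaving out DSS + GAA replicate 1 gave 9 that rose, leaving out DSS + GAA replicate 2, 4 or 5 or DSS replicate 2 or 5 gave 3, and leaving out DSS replicate 1 gave 2.

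Genes reported as targets of these receptors were counted next, from lists drawn from general knowledge of other tissues. Of 16 reported RORA targets, 9 were tested and 2 fell, a share below the 28.2% of all tested genes that fell. These were Cyp7b1 and Nfkbia (-1.07, limma adjusted p = 0.0194). Nfkbia encodes the NF-κB inhibitor IκBα, and it had 154 to 171 TPM in DSS + GAA and 246 to 650 TPM in DSS. The count of fallers was 5 without DSS + GAA replicate 1, 4 with no filter, and 1 without DSS replicate 1, under trimmed mean scaling or under median centring. Of 15 genes reported as repressed by REV-ERB, 13 were tested and 8 fell (28.2% over all tested genes), with a median log2 fold change of -1.25. Whether REV-ERB had a part in these falls was not tested. Among those with the smallest p-values were the inflammatory genes Il6 (-4.19), Il1b (-2.49) and Ccl2 (-2.49), at limma adjusted p-values of 0.00510 to 0.00825. Il6 had 0.839 to 3.97 TPM in DSS + GAA and 14.1 to 113 TPM in DSS. Both lists hold Arntl, Npas2 and Fgf21, and the REV-ERB list holds all 5 genes of the first clock list.

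Genes of Th17 cells and ILC3, where RORs are known to act, were mixed. Of 12 listed, 10 were tested, and 5 fell and 2 rose (28.2% and 5.96% over all tested genes). Among those with the smallest p-values were Stat3 (-0.64), Ahr (-0.67) and Il17a (-1.03). Il17a, whose window holds TGACCT, had 0.618, 0.522, 0.418 and 0 TPM in DSS + GAA, against 2.09, 1.14, 1.18 and 3.28 TPM in DSS (limma adjusted p = 0.0163). These levels are low, and Il17a reached 1 TPM in the DSS libraries alone. It thus entered the test only through the group where it is high, which favours a fall, and the count of fallers includes it. Its call was lost under quantile normalization (0.0739) and median centring (0.0701). Fallers numbered 3, 2 and 1 under trimmed mean scaling, quantile normalization and median centring, 2 without DSS replicate 1 and 3 without DSS replicate 2. A single gene rose with a pseudocount of 0.1, with no filter, under the 5 TPM filter and without DSS + GAA replicate 1, 2 or 4 or DSS replicate 1, 2 or 4.

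Colon tissue holds many cell types that express Rora, and in bulk tissue fewer cells of a type and less RNA per cell cannot be told apart. Of 14 markers of enteric neurons and glia, 13 fell (28.2% over all tested genes). The summed level of the 14 was 189 to 561 TPM in DSS + GAA and 969 to 1823 TPM in DSS. The neuronal RNA-binding protein gene Elavl4 had 19.2, 10.2, 6.17 and 5.56 TPM in DSS + GAA, against 38.9, 32.2, 29.97 and 31.5 TPM in DSS (-1.74 ± 0.32, limma adjusted p = 0.00685). Vip (-2.46), Snap25 (-1.76) and the acetylcholine synthesis gene Chat fell as well. None of the 14 markers was at 0 in any library.

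The level of Rora was then set against the mean marker level of the same library on the log2(TPM + 1) scale, a comparison chosen after values were seen. Against the 14 neuron and glia markers, this difference was -1.53, -1.47, -1.47 and -1.44 in DSS + GAA, against -1.55, -1.78, -1.82 and -1.54 in DSS. Relative to these markers, Rora therefore lay higher in every DSS + GAA library than in any DSS library, by a narrow margin (-1.53 against -1.54). The group means differed by 0.20. With a pseudocount of 0.1 they differed by 0.07, and the groups overlapped. Relative to the fibroblast, endothelial and ILC2 lists the groups overlapped on the log2(TPM + 1) scale, with mean differences of -0.12, -0.21 and 0.42. With a pseudocount of 0.1 these were -0.39, -0.35 and 0.49, and the groups still overlapped. The ILC2 level is the mean of only 4 tested genes of the 10 listed. Among them are Arg1, Il1rl1 and Areg, which other cells of the colon also express. Relative to the macrophage (-0.57), smooth muscle (-0.96), epithelial (-2.05) and T cell lists (-2.44), Rora lay lower in every DSS + GAA library than in any DSS library. The part of cell makeup in the fall of Rora was not tested.

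**Figure D4:**
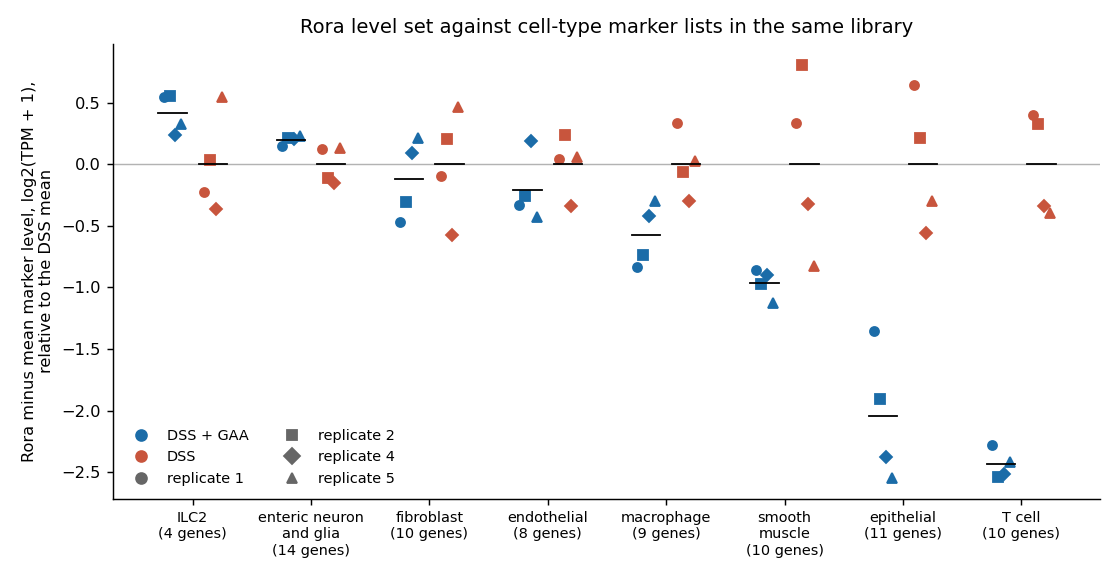
Rora minus the mean level of each marker list in the same library, on the log2(TPM + 1) scale and relative to the DSS mean of that difference, with DSS + GAA in blue left of DSS in red and black bars for group means. The DSS + GAA mean lies at 0.20 for enteric neuron and glia markers and at -2.05 and -2.44 for epithelial and T cell markers.

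The other marker lists moved as follows, where 5.96% of all tested genes rose and 28.2% fell. Epithelial markers summed to 19554 to 22786 TPM in DSS + GAA and 11238 to 15254 TPM in DSS, and 6 of 11 rose, among them Vil1 (1.23), while Epcam did not pass (0.41). T cell markers summed to 72.2 to 160 TPM in DSS + GAA and 32.1 to 50.3 TPM in DSS, and 7 of 10 rose, among them Cd3e (1.72) and Cd8a (2.41). Fibroblast markers summed to 404 to 1482 TPM in DSS + GAA and 1635 to 4769 TPM in DSS, and 4 of 10 fell, among them Dcn (-2.44). Of the endothelial markers 6 of 8 fell (27.4 to 114 TPM in DSS + GAA and 118 to 196 TPM in DSS in sum). Of the macrophage markers 2 of 9 fell (187 to 671 TPM in DSS + GAA and 506 to 603 TPM in DSS). Of the 10 smooth muscle markers 0 passed in limma and 0 had an unadjusted p under 0.05 (1589 to 3873 TPM in DSS + GAA and 1948 to 5404 TPM in DSS). Of 10 ILC2 markers 4 were tested and 3 fell, namely Arg1, Il1rl1 and Areg, which other cells of the colon also express, and the defining factor Gata3 stayed at or below 1.51 TPM and was not tested. Arg1 had 0.497 to 0.871 TPM in DSS + GAA and 8.03 to 34.9 TPM in DSS. It thus entered the test only through the group where it is high, which favours a fall.

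Several of these marker counts leaned on single libraries. Epithelial risers numbered 3 without DSS + GAA replicate 2 or 4 and under quantile normalization, and 2 without DSS replicate 1. Fibroblast fallers numbered 8 without DSS + GAA replicate 1, 2 without DSS + GAA replicate 4 or 5 or DSS replicate 2 or 4, and 1 without DSS replicate 1, and were 2 under trimmed mean scaling and median centring and 8 with array quality weights. Endothelial fallers numbered 1 without DSS replicate 1, and 3 under each other scaling and without DSS + GAA replicate 2, 4 or 5 or DSS replicate 4. Macrophage fallers numbered 7 without DSS + GAA replicate 1 and 1 under each other scaling and without DSS + GAA replicate 4 or 5 or DSS replicate 1, 2 or 5. Leaving out DSS replicate 1 gave 0 ILC2 fallers, and there was 1 on leaving out DSS + GAA replicate 2 or 4 or DSS replicate 2 or 4, and under trimmed mean scaling and median centring. Smooth muscle fallers numbered 2 without DSS + GAA replicate 1 and 1 with array quality weights.

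Within DSS + GAA, Nr1d1 was high in replicates 1 and 2, and so were markers of several cell types. Cd3e had 20.4, 15.7, 7.64 and 7.76 TPM in DSS + GAA replicates 1, 2, 4 and 5, and macrophage markers, the neuronal Elavl4, the fibroblast Dcn and Rora itself were also highest in replicates 1 and 2. Nr1d1 minus the mean T cell marker level was 2.82, 2.84, 2.90 and 2.93 in DSS + GAA, against 3.31, 3.71, 3.49 and 3.50 in DSS. The difference was lower in every DSS + GAA library than in any DSS library. Its SD within DSS + GAA was 0.05, against 0.14 for the ILC2 and smooth muscle lists, 0.17 for neurons and glia and 0.36 to 0.43 for the other 4 lists. Within DSS the SD was 0.17 for T cell markers, 0.16 for epithelial markers and 0.30 to 0.72 for the remaining lists. The T cell list was thus not the tightest in DSS. These SDs were compared after values were seen, and no other pseudocount was tried for Nr1d1. Relative to 6 of the 8 lists Nr1d1 lay higher in every DSS + GAA library than in any DSS library, and relative to epithelial markers the groups overlapped. The part of cell makeup in the Nr1d1 values was not tested.

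The genes whose profile lay nearest to each receptor were ranked by the root mean square difference of log2(TPM + 1) values over the 8 libraries, each gene centred on its own mean. All 13132 tested genes with a mean of at least 2 TPM were considered. Nearest to Rora were Parp8 (0.0656), the neural cell adhesion molecule gene Ncam1 (0.0673), Prune2 (0.0675), Mctp1 (0.0693) and Fkbp7 (0.0780). Ncam1 had 8.18, 4.95, 3.09 and 2.80 TPM in DSS + GAA, against 16.1, 12.8, 11.2 and 12.1 TPM in DSS. Nearest to Nr1d1 were C1qtnf3 (0.0978), the MHC class I gene H2-D1 (0.103), Adgrg5 (0.106), the costimulatory ligand gene Icosl (0.125) and the dendritic cell receptor gene Clec9a (0.125). H2-D1 shares reads with near-identical class I genes, so its value is uncertain. Nearest to Nr1d2 were Zfp560 (0.0595), Cdc37l1 (0.0666), Gm10033 (0.0704), Rnf170 (0.0790) and Ccdc39 (0.0799). No gene was among the 5 nearest of more than 1 receptor.

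The call of Rora held under all 18 alternatives tried, with limma adjusted p-values of 0.00131 to 0.0409 and log2 fold changes of -1.65 to -0.81. The size depended on the pseudocount, at -1.65 with 0.1 and -0.81 with 5. Nr1d1 stayed above 0 in all 18 (0.26 to 0.74) and passed in none of them (limma adjusted p = 0.0562 to 0.339). Nr1d2 ranged from -0.44, without DSS replicate 2, to 0.04 under median centring, and passed in none (limma adjusted p = 0.0545 to 0.993).

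**Figure D5:**
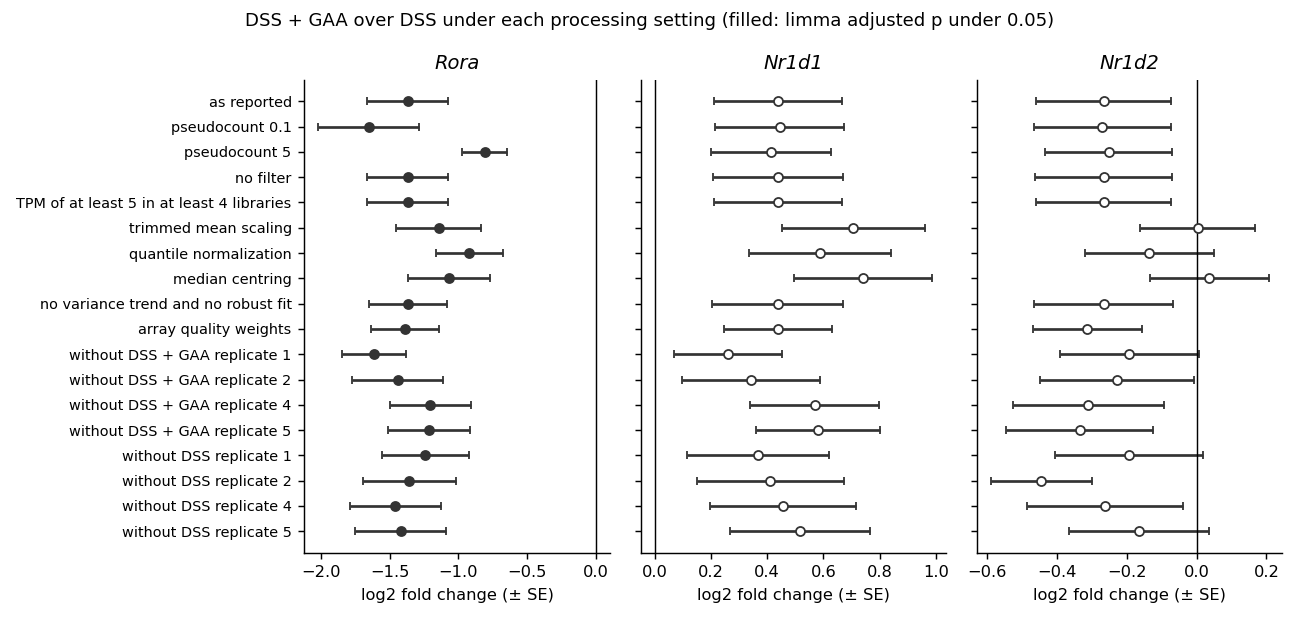
Log2 fold change of DSS + GAA over DSS with its standard error for Rora, Nr1d1 and Nr1d2 under the processing settings named in the rows, on separate axes. Filled points passed at a limma adjusted p under 0.05: all rows for Rora, which span -1.65 to -0.81, and no row for Nr1d1 or Nr1d2.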

How the data were processed

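The deposited table holds a TPM value per gene and library, made by the authors, and each library's TPM values sum to 1000000. It also holds the authors' log2 fold change, p-value and false discovery rate. The submitters' processing notes name mm10 as build and, with no versions or roles, GATK, SAMtools, edgeR, featureCounts, Subread, Bowtie2, HISAT2 and Trimmomatic. Depth is unknown and count tests were not run. Genes with at least 1 TPM in at least 4 libraries (14217 of 18262) were compared on log2(TPM + 1) with limma 3.58.1 in R 4.3.3 (group alone, variance trend, robust empirical Bayes, Benjamini-Hochberg over all tested genes). Named genes are the receptors, ROR and clock genes, genes sharing exons, up to 4 passing members with the smallest p per list, the commonest marker of each cell type, the 5 largest passing receptor changes each way and the 5 nearest profiles. The 3 receptors and the 20 lists were chosen with earlier results of these data known. The labels do not say that libraries are separate animals, so p-values measure the spread between these libraries, which may be technical. On data simulated for DSS + GAA over DSS over 14217 genes, 67 of 100 genes changed by 1 and 97 of 100 changed by 2 on the log2 scale were recovered, with 4 unchanged genes called. The changed genes were drawn only from genes with a mean level above that of Rora, so this recovery does not apply to Rora. The noise was normal and independent between genes, and a far smaller share of genes changed than passed in the real data. Alternatives were pseudocounts of 0.1 and 5, filters, trimmed mean scaling (30% of ratios and 5% of levels trimmed at each end), quantile normalization, median centring, other limma settings, a replicate block and leaving out each library. Values of some genes that this rule names, and of the corepressor list, are not reported here.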

Additional observations from a re-analysis of the deposited data

Results flagged for a closer look

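Of 196 groups of 4 libraries checked for 98 named genes, 5 held a library that stood far from the other 3 (a wide gap relative to the group's whole range, by Dixon's test), and chance flags about 1 in 20 such groups. None of the 5 concerned Rora, Nr1d1 or Nr1d2. Clock had 27.9 TPM in DSS replicate 1, against 22.8 to 23.2 TPM in the other DSS libraries. Ncoa2 had 14.9 TPM in DSS + GAA replicate 2, against 15.9 to 16.0 TPM in the other DSS + GAA libraries. Dcn had 3317 TPM in DSS replicate 1, against 1047 to 1398 TPM in the other DSS libraries. Krt8 had 4137 TPM in DSS replicate 4, against 3285 to 3328 TPM in the other DSS libraries. H2-D1 had 2153 TPM in DSS replicate 5, against 1719 to 1782 TPM in the other DSS libraries.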

How the results depend on the processing

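The direction and call of Rora held under the 18 alternatives tried. The log2 fold change of Nr1d2 turned to 0.0030 under trimmed mean scaling (exact permutation p = 0.971) and 0.037 under median centring. Leaving out each library gave -1.61 to -1.20 for Rora, 0.26 to 0.58 for Nr1d1 and -0.44 to -0.17 for Nr1d2, and exact permutation p-values of 0.0286 to 0.0571, 0.0857 to 0.343 and 0.0571 to 0.514 for these genes in this order. For Rora that p was 0.0571 without any one of the DSS libraries and 0.0286 without any one of the DSS + GAA libraries. The groups stayed apart for Rora in each of these sets. Leaving out a library allows fewer assignments than the 70 with all libraries, so these permutation p-values cannot be compared with those from all libraries. Of all genes, 847 rose, against 1890, 1677 and 2165 with trimmed mean scaling, quantile normalization and median centring, and 4006 fell, against 1649, 1601 and 1308, while leaving out each library gave 361 to 1277 risers and 1676 to 4435 fallers. Signs turned to positive for Clock (0.035, 0.027 and 0.077), Ciart (0.13, 0.25 and 0.19), Thra (0.12, 0.10 and 0.16) and Rnf170 (0.10, 0.16 and 0.15) under these 3 scalings in this order. They also turned under quantile normalization and median centring for Bhlhe41 (0.12 and 0.0036), Zfp560 (0.19 and 0.070), Gm10033 (0.21 and 0.084) and Ccdc39 (0.024 and 0.045), and for Ciart without DSS + GAA replicate 1 (0.074) or DSS replicate 5 (0.17), its range over the libraries left out being -0.30 to 0.17. The cause of these turns was not tested. Whether the replicate numbers pair the libraries cannot be decided from so few libraries. Deviations from the group means correlated at -0.11 to 0.18 between libraries of the same number, and 4 of 8 libraries correlated best with their own number. With the replicate block, Rora had -1.37 ± 0.19 (SE, limma adjusted p = 0.00459), against an SE of 0.29 without it. Nr1d1 had 0.44 and Nr1d2 -0.27 with the block, and 679 genes rose and 3340 fell. The limma adjusted p was then 0.0814 for Cry1, which lost its call, and 0.0462 for Hlf, which gained one. TPM keeps no depth, so the precision of low levels such as those of Rora in DSS + GAA replicates 4 and 5 cannot be given.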
